A study of Mus musculus with 2 samples.

Results

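Transcripts of 4 chemokine ligands, Cxcl1, Cxcl2, Cxcl3 and Cxcl5, and of their receptor Cxcr2 were followed in single cells of the mouse mitral valve. These 5 genes were picked by symbol out of 32285 measured, with earlier results of the same data in view. The libraries came from 12-week-old mice on the C57BL/6J background. WT mice carried Fbn1+/+, and mgR mice were littermates homozygous for the mgR allele of Fbn1, the gene of the microfibril protein fibrillin-1. The allele is carried in the germline, not restricted to a cell type, and holds a neo cassette in an intron that lowers Fbn1 mRNA while its coding sequence is kept. A supplementary legend gives an n for the single-cell data without saying how the mice fell into libraries, and no label ties cells to animals. Valves were digested with collagenase A and elastase, viable cells were sorted, and each genotype gave 1 library, so no test of genotype is possible and every interval below is a 95% interval for counting error only.

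Barcodes were kept between 200 and 5000 genes with 10% or less of their UMIs mitochondrial (UMIs are unique molecular identifiers, each marking 1 captured RNA molecule), which left 875 WT cells at a median of 5033 UMIs and 3438 mgR cells at a median of 7370. The libraries shared 2 barcodes. Fibroblasts held at least 10 UMIs of Col1a2, Col3a1 and Dcn in sum, macrophages at least 10 of C1qa, C1qb and C1qc, endothelium at least 2 of Pecam1 and Cdh5, and neutrophils at least 10 of S100a8 and S100a9. A cell was placed in a class when it met 1 of these rules alone, which gave 322 WT and 878 mgR fibroblasts, 224 and 1534 macrophages, 29 and 150 endothelial cells and 17 and 38 neutrophils. Cells that met the fibroblast rule at all numbered 353 in WT and 1209 in mgR. Of these, 29 and 310 also met the endothelial rule, so a larger share of mgR than of WT fibroblasts was left out. Markers outside the rules followed the classes: Lum, Pdgfra and Col1a1 were highest in fibroblasts, Adgre1, Cd68, Csf1r and Mrc1 in macrophages, Egfl7, Emcn, Kdr and Tie1 in endothelium, and Retnlg, Ly6g, Csf3r and Mmp9 in neutrophils, in both libraries. Fbn1 in fibroblasts was 171 CPM (UMIs per 1000000 UMIs of the class) in WT and 135 CPM in mgR, a ratio of 0.791 (0.691 to 0.907). Male mice are named for the experimental comparisons. Even so, 28.1% of WT and 60.8% of mgR cells held Xist UMIs and no Y-linked ones (Xist-only cells) and 38.5% and 21.1% the reverse (Y-only cells), so each library held cells of more than 1 mouse, mixed differently, and values within each kind of cell are given where they differ.

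CXCL1, CXCL2, CXCL3 and CXCL5 are small secreted proteins that carry an ELR motif and attract neutrophils through CXCR2, a G protein-coupled receptor on the neutrophil surface. Their genes are silent in most resting cells and are switched on within hours by interleukin-1, tumor necrosis factor or Toll-like receptor ligands through NF-kB, and their short-lived mRNAs are degraded with the help of tristetraprolin (Zfp36) and regnase-1 (Zc3h12a). In tissue, macrophages and stromal fibroblasts are both known sources.

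The ligand genes lie side by side on the plus strand of chromosome 5 within 146579 bases that also hold the related genes Ppbp, Pf4 and Cxcl15 (GENCODE M21, GRCm38, the build family the submitters name as mm10). Cxcl5 (ENSMUSG00000029371) spans 90759360 to 90761624, Cxcl3 (ENSMUSG00000029379) 90786103 to 90789600, Cxcl1 (ENSMUSG00000029380) 90891241 to 90893115 and Cxcl2 (ENSMUSG00000058427) 90903871 to 90905938. Cxcr2 (ENSMUSG00000026180) lies on the plus strand of chromosome 1 from 74153989 to 74161246. All 5 are protein-coding and overlap no other annotated gene. The main Cxcl2 and Cxcl3 transcripts share a run of 110 identical bases, but it ends 939 and 850 bases before their 3′ ends, where this chemistry reads. Over all annotated transcripts of these 2 genes the longest shared run was 157 bases, and its distance to the 3′ ends was not computed. The other pairs share no stretch of 31 bases.

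The 120 bases before the RefSeq start site are printed for the genes with an entry in the RefSeq promoter table (GRCm38.p6, 4 of 5 genes, Cxcl5 not among them), 5′ to 3′ on the plus strand, because Cxcl1, Cxcl2 and Cxcl3 carry the same NF-kB (kappaB) word there. Capitals mark GGGAATTTCC with the C that completes its overlapping copy on the opposite strand, and in Cxcl3 also TATAAA.
Cxcl1, chr5:90891125-90891244: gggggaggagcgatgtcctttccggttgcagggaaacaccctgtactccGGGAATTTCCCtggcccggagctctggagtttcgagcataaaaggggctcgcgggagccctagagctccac
Cxcl2, chr5:90903779-90903898: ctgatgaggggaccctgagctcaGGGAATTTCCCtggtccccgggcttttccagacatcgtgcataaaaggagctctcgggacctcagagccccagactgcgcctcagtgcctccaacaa
Cxcl3, chr5:90785981-90786100: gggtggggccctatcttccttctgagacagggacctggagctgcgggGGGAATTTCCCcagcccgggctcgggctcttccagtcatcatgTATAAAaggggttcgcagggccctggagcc
Cxcr2, chr1:74153874-74153993: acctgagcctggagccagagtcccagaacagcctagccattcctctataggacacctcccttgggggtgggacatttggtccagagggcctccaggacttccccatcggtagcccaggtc
The word starts 71, 97 and 73 bases before the RefSeq start site of Cxcl1, Cxcl2 and Cxcl3. The Cxcl2 window ends at 90903898, past the GENCODE start of 90903871, so its word lies nearer to that start. The Cxcl1 and Cxcr2 windows also end past their GENCODE starts, and that of Cxcl3 does not. No NF-kB word or TATAAA was found in these 120 bases of Cxcr2, which says only that the letters are not in this window. The tight form GGGANNTTCC, searched on both strands, was present in 1.47% of the 32851 promoters of the table at their full length of 300 bases, the looser kappaB consensus in 8.46%, and TATAAA on the gene strand in 8.32%.

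The ligands divided by cell class, and the receptor was in neither of the main producing classes. Cxcl2 was a macrophage transcript, Cxcl1 was shared by macrophages and fibroblasts, Cxcl3 was a rare macrophage transcript, Cxcl5 a rare fibroblast transcript, and Cxcr2 was nearly confined to neutrophils. Of all UMIs of each gene in kept cells, macrophages held 93.6% of Cxcl2 in WT and 94.2% in mgR, and 76.7% and 92.2% of Cxcl3. Fibroblasts held 100% and 90.2% of Cxcl5, and neutrophils 96.1% and 82.7% of Cxcr2. For Cxcl1 the macrophage share was 69.2% and 60.9%, and the fibroblast share 26.5% and 33.8%.

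**Figure D1:**
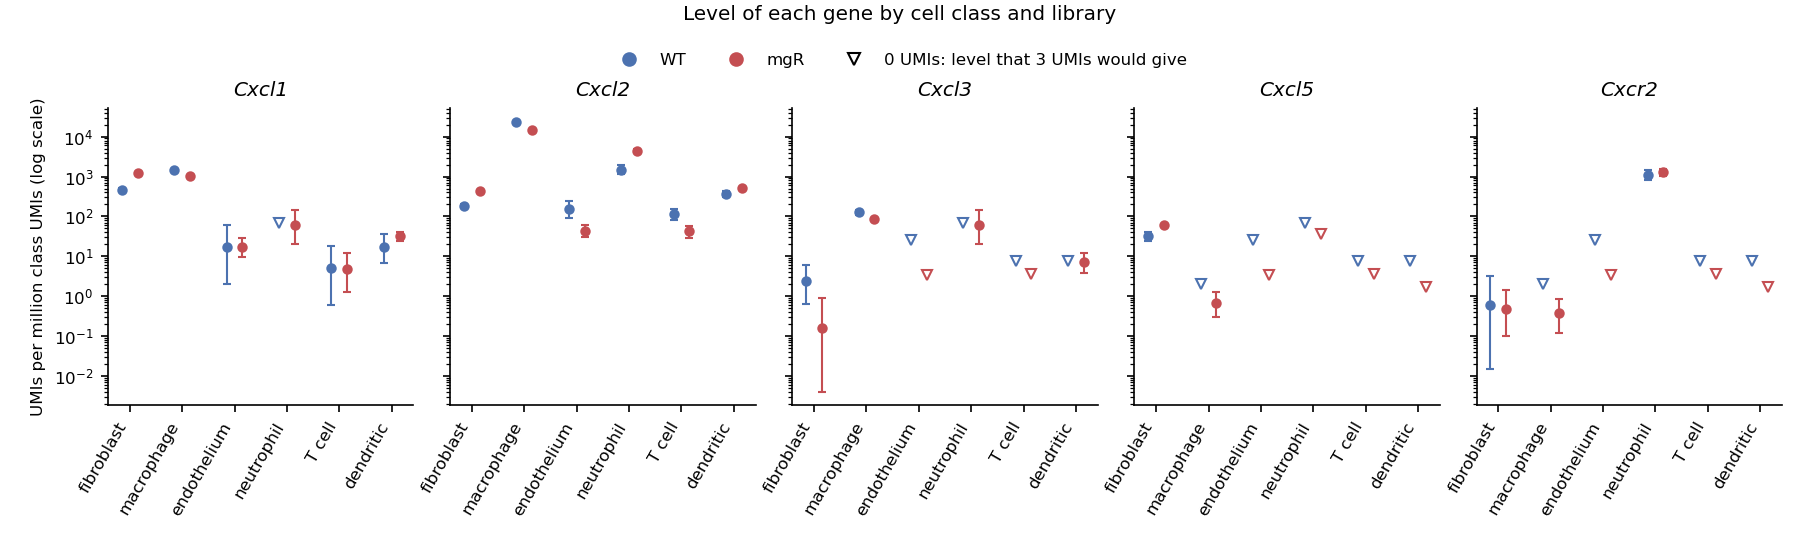
Level of each gene in 6 cell classes, in CPM on a log axis, with WT in blue and mgR in red. Bars are 95% Poisson intervals, and open triangles mark classes with 0 UMIs at the level that 3 UMIs would give. Cxcl1 lies highest in fibroblasts and macrophages of both libraries, and Cxcr2 in neutrophils, at 1094 and 1287 CPM.

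Cxcl2, a strong neutrophil attractant that tissue macrophages make on activation, was among the most abundant transcripts of valve macrophages. It had 34261 UMIs in WT macrophages, 23718 (23468 to 23971) CPM, and 192917 UMIs in mgR macrophages, 14372 (14308 to 14436) CPM. It ranked first among all genes of WT macrophages and 6th in mgR macrophages, with 2.37% and 1.44% of their UMIs. The transcript was widespread in this class: 209 of 224 WT and 1415 of 1534 mgR macrophages had at least 1 UMI (93.3% and 92.2%), with a median of 121 and 84 UMIs per cell and a highest cell of 642 and 828. T cells, taken as a class that should lack it, had a UMI in 8.89% and 14.9% of cells, at median depths of 4145 and 5062 UMIs against 6013 and 8332 in macrophages.

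Among the other classes plotted, the order of Cxcl2 levels was neutrophils, dendritic cells, fibroblasts, then endothelium and T cells, in both libraries. Neutrophils, which can secrete CXCL2 themselves, had 67 UMIs in WT, 1496 (1159.5 to 1900.1) CPM, and 354 in mgR, 4338 (3898 to 4814) CPM. Dendritic cells had 372 (315 to 437) CPM in WT and 506 (474 to 539.7) in mgR, and fibroblasts 184 (164 to 206) and 436 (419 to 452). The lowest levels differed by less than their intervals within each library: in WT, endothelium had 153 (90.7 to 242) CPM and T cells 112 (81.7 to 149.9), with 37 of 45 T cell UMIs in 1 cell, and in mgR 43.6 (30.8 to 59.8) and 42.2 (29.6 to 58.4). In WT the fibroblast and endothelial intervals overlapped too. None of the 5 genes had 100 UMIs over both libraries in endothelium, the minimum for a ratio to be counted, and 3.72% of 1748 endothelial genes were 2-fold or more higher in mgR and 0.915% lower. Among the 80 WT cells that met no class rule, 1 cell held 675 of the 933 Cxcl2 UMIs.

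Macrophages of the mgR library had the lower Cxcl2 level, with a ratio of mgR to WT of 0.606 (0.599 to 0.613). 3.10% of the 7943 genes with at least 100 macrophage UMIs over both libraries had a lower ratio. The ratio was 0.614 in Xist-only cells and 0.532 in Y-only cells. No gene of the chemokine group was 2-fold lower in mgR macrophages, against 1.07% of those genes, and none was 2-fold higher, against 4.02%. Scaling by the median gene ratio in place of class totals dropped by 0.13 every log2 ratio of this class. The 16 immediate-early and heat-shock genes known to rise during tissue digestion summed to 10667 CPM in WT and 9053 CPM in mgR macrophages, 14 of them being lower in mgR and 1 (Hspa1b) 2-fold lower, and their part in the Cxcl2 result was not tested.

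Cxcl1, the ligand that fibroblasts and epithelium make in response to interleukin-1, had nearly equal levels in fibroblasts and macrophages when both libraries were summed, at 1079 and 1074 CPM, but the order reversed between libraries. Macrophages had 2075 UMIs in WT, 1436 (1375 to 1499.6) CPM, and 13896 in mgR, 1035 (1018 to 1053) CPM. Fibroblasts had 794 UMIs in WT, 470.2 (438 to 504) CPM, and 7716 in mgR, 1245 (1217 to 1273) CPM. WT macrophages were thus above WT fibroblasts, and mgR macrophages below mgR fibroblasts, with intervals that did not overlap. This order was read with cells of more than 1 class left out, which had 402 CPM in WT and 407 in mgR. Counting them in each class they met gave mgR to WT ratios of 2.17 in fibroblasts and 0.740 in macrophages. Class levels are not given for that setting, and the mgR order may depend on it. Endothelium (17 and 17.2 CPM), dendritic cells (17.4 and 32.1) and T cells (4.98 and 4.69) were far lower, and neutrophils had 0 UMIs in WT, which allows up to 67.0 CPM, and 5 in mgR.

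The Cxcl1 ratio of mgR to WT was 2.65 (2.46 to 2.85) in fibroblasts and 0.721 (0.688 to 0.755) in macrophages. Cxcl2 had the same opposite pair of ratios, 2.37 (2.10 to 2.67) in fibroblasts and 0.606 (0.599 to 0.613) in macrophages. In fibroblasts, Cxcl1 and Cxcl2 were the 2 genes of the group past 2-fold, out of 3 with at least 100 UMIs there, and 1.54% of 7466 genes were as far above WT. Since the genes were picked with this contrast known, those counts describe the choice. Several macrophage transcripts moved with the library in fibroblasts: C1qa was 4.74 CPM in WT and 17.3 in mgR, C1qb 7.11 and 24.5, and C1qb was detected in 3.73% and 15.5% of fibroblasts. Among the checking markers Csf1r (2.37 and 6.94 CPM) and Mrc1 (0.592 and 2.10) were higher in mgR, Cd68 was 8.29 and 5.65, and Adgre1 had 0 UMIs in WT and 3 in mgR. Their part in the fibroblast ligand ratios was not tested. In fibroblasts the direction was the same in both mixtures of animals, but the size was not: Cxcl1 had a ratio of 1.79 in Xist-only cells and 5.31 in Y-only cells, and Cxcl2 1.30 and 5.62. Counting cells of more than 1 class in each class they met gave a Cxcl2 ratio of 1.56, and leaving out the 1% of fibroblasts with most Cxcl2 UMIs gave 4.34.

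**Figure D2:**
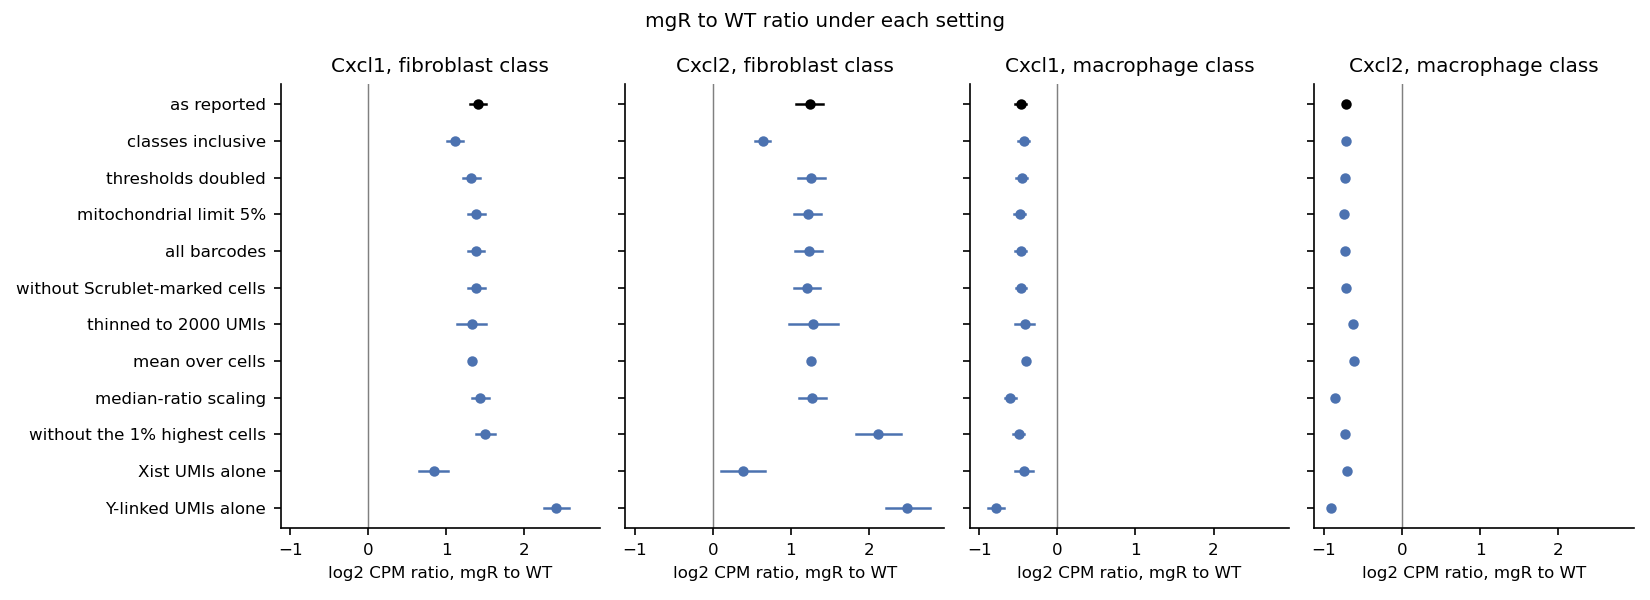
Log2 ratio of mgR to WT CPM for Cxcl1 and Cxcl2 in fibroblasts and macrophages under each setting, with 95% conditional binomial intervals where counts allow them. All points lie above 0 in fibroblasts and below 0 in macrophages, and the fibroblast values run from 0.38 to 2.49.

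Fibroblast Cxcl1 came from a minority of cells. At least 1 UMI was found in 77 of 322 WT fibroblasts (23.9%) and 311 of 878 mgR fibroblasts (35.4%), against 2.22% and 2.70% of T cells, and in cells thinned to 2000 UMIs the fibroblast shares were 19.5% (15.1 to 24.5) and 27.2% (24.2 to 30.4). With cells of more than 1 class counted in each class they met, the unthinned shares were 22.9% in WT and 28.9% in mgR fibroblasts. The median fibroblast had 0 UMIs and the highest 83 in WT and 314 in mgR. Cells with 10 or more UMIs numbered 27 and 150, or 8.39% and 17.1% of the class, and held 77.7% and 93.4% of its Cxcl1 UMIs. Within these cells the level was 3389 CPM in WT and 6139.6 CPM in mgR. Both the share of high cells and the level within them were higher in the mgR library. Its fibroblasts were also deeper, with a median of 6732.5 against 5182 UMIs in WT. The limit of 10 UMIs was not scaled by depth, and the part of depth in the share of high cells was not tested. The thinned shares above had overlapping intervals.

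Concentration in few cells set the ligands apart from most genes. The 10 highest fibroblasts held 48.1% of Cxcl1 UMIs in WT and 26.2% in mgR, 81.4% and 38.7% of Cxcl2, and 92.6% and 50.8% of Cxcl5, where the median gene with at least 100 UMIs had 18.4% and 11.5%. Past 50% were Cxcl2 in WT and Cxcl5 in mgR among these genes (WT Cxcl5 had 54 UMIs, under the minimum), and 1.02% of WT and 0.801% of mgR genes were. In macrophages the 10 highest cells held 65.8% and 43.9% of Cxcl3, 34.4% and 9.88% of Cxcl1, but 15.3% and 3.49% of Cxcl2, with medians over genes of 21.7% and 7.68%, and 1.85% and 0.581% of genes past 50%. The 10 highest macrophages thus held a smaller share of Cxcl2 than of the median gene, and a larger share of Cxcl3. This share also depends on how many UMIs a gene has, and genes of like level were not compared. The number of cells that held 50% of the UMIs was 3 WT fibroblasts for Cxcl2 and 44 WT macrophages for the same gene. A fixed number of 10 cells is a larger part of the smaller WT classes, so the shares above do not compare the libraries. As a part of the class, 50% of Cxcl1 UMIs lay in 3.42% of WT and 3.53% of mgR fibroblasts. For Cxcl2 this was 0.932% and 1.71%, and for Cxcl5 0.621% and 1.14%.

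**Figure D3:**
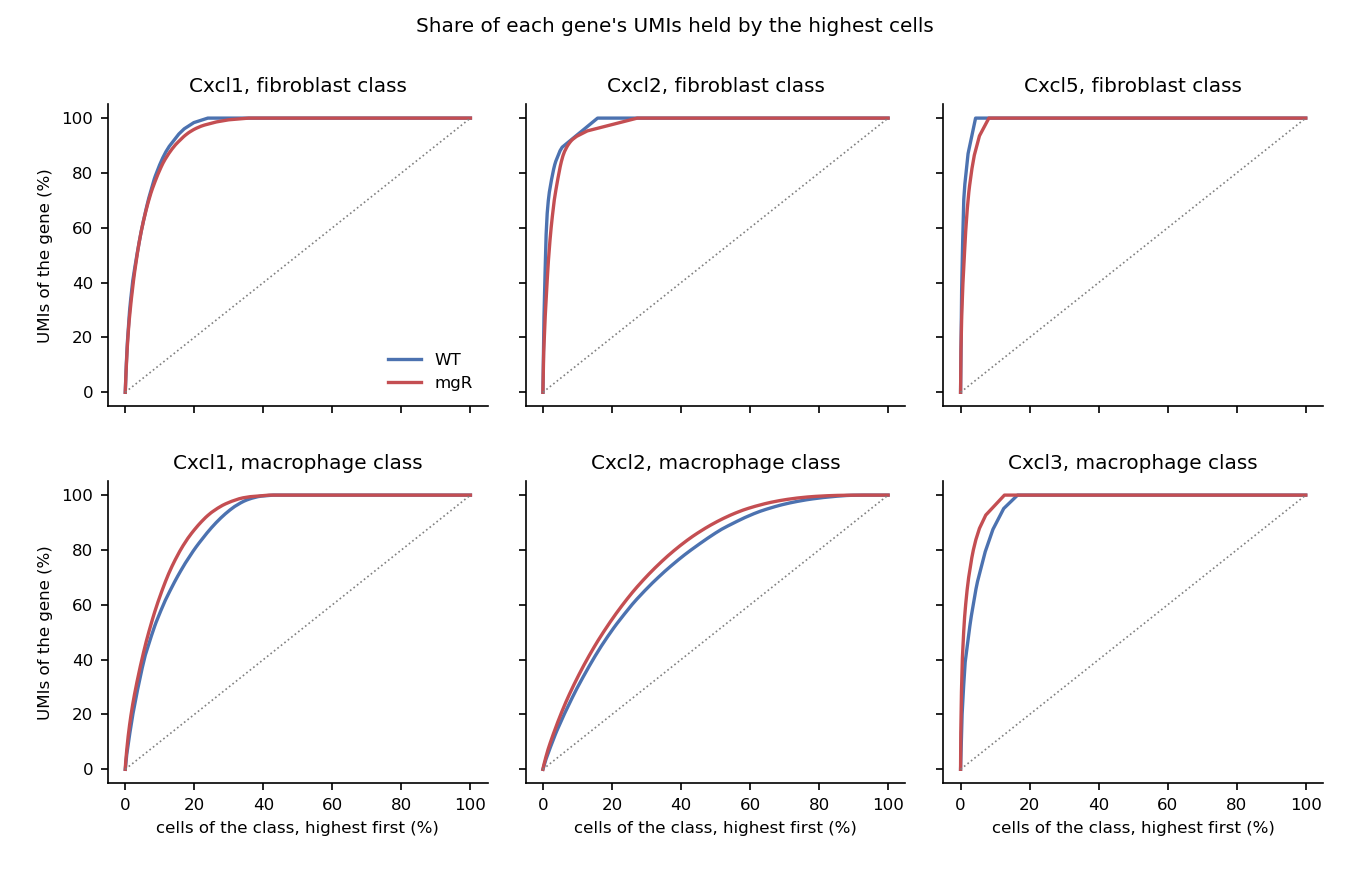
Percent of a gene's UMIs (vertical axis) held by a given percent of the cells of its class, ranked from the highest cell (horizontal axis), in WT (blue) and mgR (red); the dotted line marks equal UMIs in every cell. Of the ligand curves shown, that of Cxcl2 in macrophages is the flattest, and the curves of Cxcl5 and Cxcl3 reach 100% within 8.20% of mgR fibroblasts and 16.5% of WT macrophages.

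Cxcl2 in fibroblasts rested on even fewer cells than Cxcl1. Fibroblasts with 10 or more Cxcl2 UMIs numbered 6 in WT and 54 in mgR and held 73.0% and 87.5% of the UMIs. In fibroblasts without a Cxcl1 UMI the Cxcl2 level was 67.1 CPM in WT, below the 112 of T cells and 153 of endothelium there, and 82.7 in mgR, above the 42.2 and 43.6 of that library. The WT levels of T cells and endothelium each rested mainly on 1 cell, with 37 of 45 and 11 of 18 UMIs, so the order in WT is uncertain. The proportion of the ligands differed between the classes. Macrophages had 0.0606 Cxcl1 UMIs per Cxcl2 UMI in WT and 0.0720 in mgR. Fibroblasts had 2.55 and 2.86, so Cxcl1 made up 71.9% (69.1 to 74.5) and 74.1% (73.2 to 74.9) of the pair there and 5.71% and 6.72% in macrophages.

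Most fibroblasts with Cxcl2 or Cxcl5 also had Cxcl1. With detection set at 3 or more UMIs, 13 of 16 Cxcl2 fibroblasts in WT and 63 of 85 in mgR also had Cxcl1, a share of 81.2% and 74.1%, while 23.6% and 27.5% of Cxcl1 fibroblasts had Cxcl2. Among fibroblasts without Cxcl1 at that limit, 1.12% and 3.39% had Cxcl2. Of the Cxcl5 fibroblasts, 3 of 4 in WT and 28 of 35 in mgR had Cxcl1. In macrophages, 86 of 86 Cxcl1 cells in WT and 515 of 519 in mgR had Cxcl2, which 91.5% and 87.3% of all macrophages had. Every Cxcl3 macrophage, 21 in WT and 83 in mgR, had Cxcl2.

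**Figure D4:**
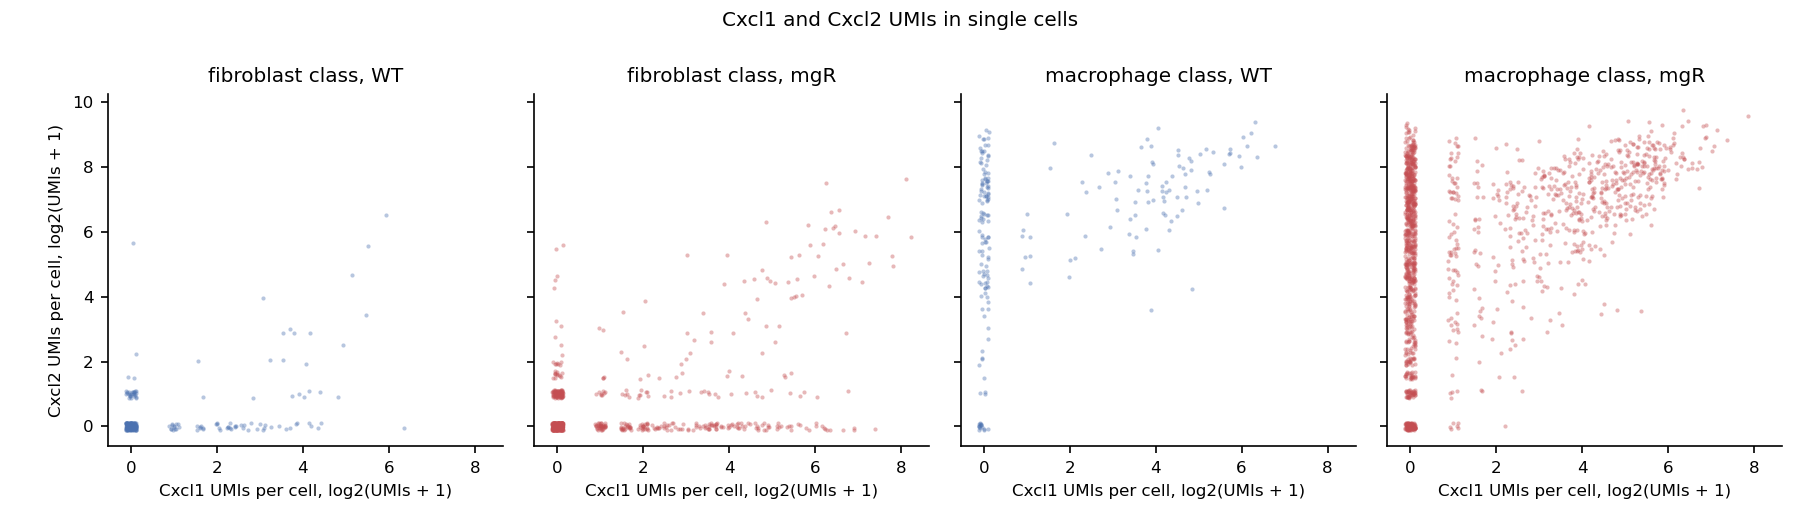
Cxcl1 against Cxcl2 UMIs in each fibroblast and macrophage of both libraries, as log2(UMIs + 1) with a small random shift so that points at equal counts can be seen. Fibroblasts lie mainly along the Cxcl1 axis with a diagonal arm of cells that hold both, whereas macrophages form a column of cells with Cxcl2 and no Cxcl1 and a cloud with both.

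Fibroblasts with 10 or more Cxcl1 UMIs, a limit set after the counts were seen, differed from those with none in genes of the same induction pathway. Of 25 genes of the pathway lists with at least 100 fibroblast UMIs, 14 were 2-fold or more higher in the high cells in both libraries and 0 were lower, against 2.61% of all genes higher and 2.83% lower. Of the 9 regulators of NF-kB and mRNA decay, 7 were higher. Nfkbia, the inhibitor of NF-kB that NF-kB itself induces, was 2.76-fold higher in WT and 3.17-fold in mgR. Nfkbiz, a nuclear co-activator, was 4.61-fold and 5.41-fold higher, and Zc3h12a, the nuclease that degrades such mRNAs, 5.71-fold and 7.82-fold. Rela (1.6 and 1.75) and Cebpd (0.377 and 0.662) did not pass 2-fold upward.

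Of the 6 co-induced products, the 4 with at least 100 fibroblast UMIs were higher in these cells in both libraries, and Lif, with 35 WT and 50 mgR UMIs, was at 0.243 times its level in the other cells in WT and 5.58 times in mgR. Ccl2, the monocyte attractant, was 6.80-fold and 25.8-fold higher, Ccl7 35.5-fold and 25.2-fold, Il6 91.7-fold and 17.1-fold, and Ptgs2, the inducible cyclooxygenase, 7.83-fold and 7.1-fold. The adhesion genes Icam1 (4.02 and 2.75) and Sele (7.72 and 16.3) were higher too. Among the receptors that can start the pathway, Tlr2 passed 2-fold in both libraries (2.27 and 2.34), while Il1r1 (1.44 and 1.81) and Tnfrsf1a (1.54 and 1.39) did not, and Tlr4 was lower in the high cells (0.618 and 0.590). Of the 16 digestion genes, 3 were 2-fold higher (Junb, Ier3 and Dnajb1) and Fos was at 0.428 and 0.515 times its level in cells without Cxcl1. As a sum these 16 genes had 9078 CPM in WT and 8066 CPM in mgR cells without Cxcl1 and 12176 and 13677 in the high cells, and their part in this result was not tested.

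Macrophage transcripts were present at low levels in fibroblasts of every Cxcl1 group. Adgre1, Cd68, Csf1r and Mrc1 summed to 13.7 CPM in WT fibroblasts with 0 Cxcl1 UMIs and 11 in those with 10 or more. They had 0 CPM in WT fibroblasts with 1 to 9. In mgR the sums were 14.0, 14.7 and 19.6 with 0, 1 to 9 and 10 or more. Macrophages split in the same way had between 2479 and 3162. The C1q genes that define the macrophage class summed to 16.2 CPM in WT fibroblasts with 0 Cxcl1 UMIs, 14.9 with 1 to 9 and 22.0 with 10 or more, and to 50.1, 57.1 and 49.4 in mgR. The high cells were deeper, with a median of 6603 against 5033 UMIs in WT and 7470 against 6438 in mgR. In mgR, 38.7% of the high cells and 19.0% of the cells without Cxcl1 were Y-only cells, and in WT 55.6% and 43.7% of 27 and 245 cells, and the part of depth and of the animals in these differences was not tested.

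The same split of macrophages gave few differences. Of 29 pathway genes, 1 (Il6, 2.63-fold and 3.53-fold) was 2-fold higher in both libraries in macrophages with 10 or more Cxcl1 UMIs than in those with 0, and 0 were lower, against 0.0630% and 0.189% of all genes. Nfkbia was at 1.13 and 1.40 times and Cxcl2 at 1.72 and 2.11 times its level in macrophages without Cxcl1.

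**Figure D5:**
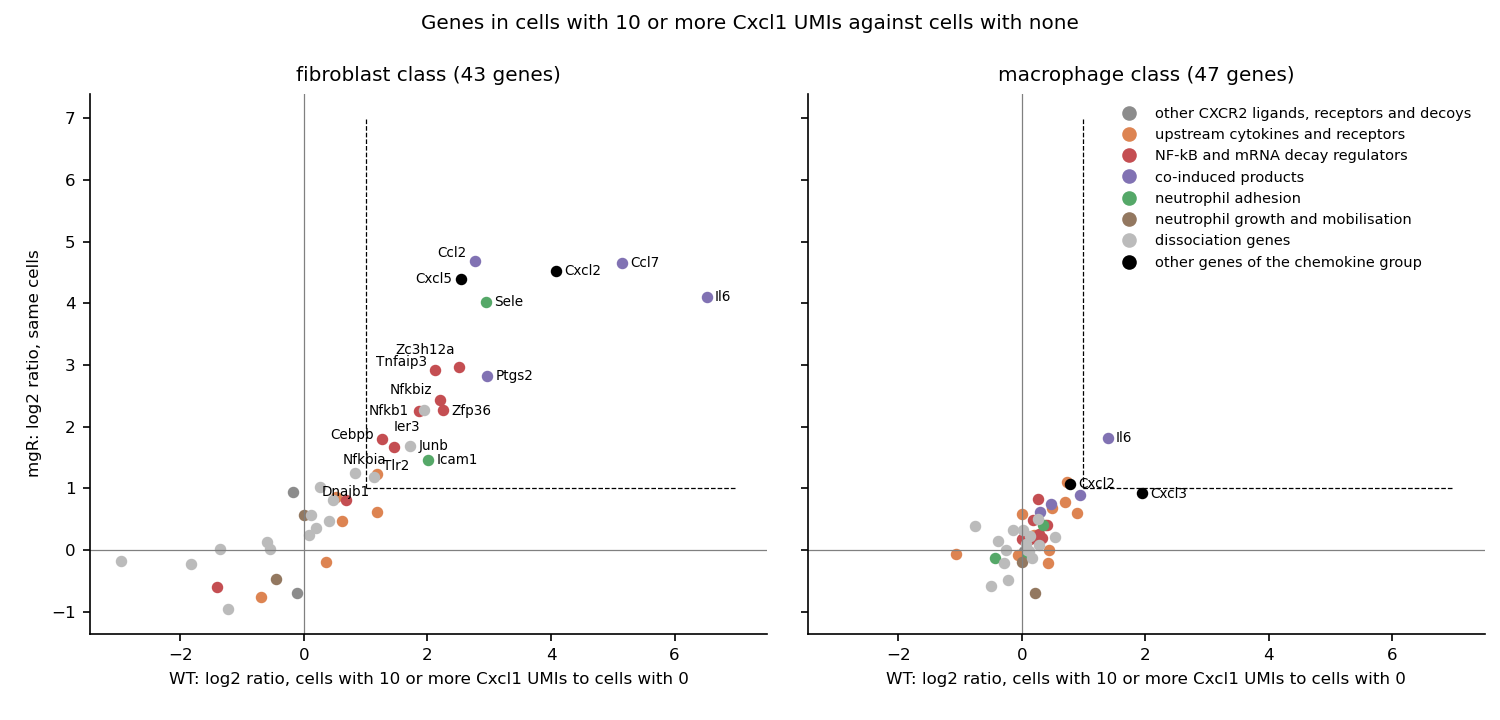
Log2 CPM ratio between cells with 10 or more and cells with 0 Cxcl1 UMIs, WT on the horizontal and mgR on the vertical axis, for the genes of the pathway and digestion lists and of the chemokine group with at least 100 UMIs in the class. Points inside the dashed corner are 2-fold or more higher in both libraries, which holds for 14 pathway genes in fibroblasts and 1 in macrophages; black points are Cxcl2 and Cxcl5 (fibroblasts) or Cxcl2 and Cxcl3 (macrophages).

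Fibroblast subsets, split by markers chosen after earlier results were known, had Cxcl1 levels further apart than those of the libraries. Fibroblasts with at least 3 UMIs of Ptx3, Igfbp3 and Smoc2 and fewer than 3 of Fmod, Prg4 and Scx had 1085 CPM of Cxcl1 in WT (98 cells) and 3274 in mgR (242 cells), and the opposite set had 116 (94 cells) and 146 (310 cells). The mgR to WT ratio of Cxcl1 was 3.02 (2.77 to 3.29) in the first set and 1.26 (0.953 to 1.68) in the second, and that of Cxcl2 2.57 (2.24 to 2.95) and 1.05 (0.753 to 1.50). The first set made up 30.4% of WT and 27.6% of mgR fibroblasts. It held 574 of the 794 WT and 5760 of the 7716 mgR fibroblast UMIs of Cxcl1. The part of the sets in the differences between fibroblasts with 10 or more and with 0 Cxcl1 UMIs was not tested. Among macrophages, the Lyve1, Folr2 and Cd163 set and the Cx3cr1 and Cd72 set had Cxcl1 levels of 1563 and 1623 CPM in WT and 1107 and 941 in mgR, and Cxcl2 ratios of 0.671 (0.657 to 0.685) and 0.550 (0.538 to 0.562).

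Cxcl3, an ELR chemokine that activated myeloid cells make, was the minor macrophage ligand. It had 184 UMIs in 37 WT macrophages, 127 (109.6 to 147) CPM, and 1139 in 195 mgR macrophages, 84.9 (80.0 to 89.9) CPM, a ratio of 0.666 (0.570 to 0.783). For each 100 UMIs of Cxcl2 and Cxcl3 together, Cxcl3 had 0.534 in WT and 0.587 in mgR. A single mgR macrophage held 154 UMIs, and 26 cells with 10 or more held 63.0%. The ratio was 0.320 in Y-only cells and 0.775 in Xist-only cells, an interval on the log2 scale of -0.74 to 0.03. Fibroblasts had 4 and 1 UMIs.

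Cxcl3 was unequal between the macrophage sets: 35.9 CPM in WT and 33.4 in mgR in the Lyve1, Folr2 and Cd163 set, and 106 and 161 in the Cx3cr1 and Cd72 set, with intervals that did not overlap between sets in either library. Within the sets the mgR to WT ratio was 0.931 (0.562 to 1.65) and 1.51 (1.13 to 2.06), so the direction of the whole class did not hold in the second. The sets made up different shares of the class in the libraries, 30.4% of WT and 54.6% of mgR macrophages for the first and 29.9% and 18.6% for the second. They held 16 and 51 of the 184 WT Cxcl3 UMIs, and 244 and 432 of the 1139 mgR ones. The rest lay in macrophages of neither set, and the part of the sets in the ratio of the whole class was not tested. Macrophages with 10 or more Cxcl3 UMIs numbered 3 in WT and 26 in mgR. The mgR ones had 4999.6 CPM of Il1b, interleukin-1 beta, against 689 in cells without Cxcl3, and 384 against 1352 CPM of Mrc1, the mannose receptor.

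Cxcl5, the ligand that stromal and epithelial cells make rather than macrophages, was found in fibroblasts alone among the 4 classes in WT and almost alone in mgR. It had 54 UMIs in 14 WT fibroblasts, 32.0 (24.0 to 41.7) CPM, and 370 in 72 mgR fibroblasts, 59.7 (53.8 to 66.1) CPM. Macrophages had 0 UMIs in WT, which allows up to 2.08 CPM, and 9 in mgR, 0.670 CPM. The fibroblast ratio was 1.87 (1.40 to 2.53). It was 3.20 in Xist-only cells, on 8 WT UMIs, 1.77 in Y-only cells, and 4.01 without the 1% highest cells, which left 13 WT UMIs. After thinning to 2000 UMIs the log2 ratio was 0.60 (-0.11 to 1.38), an interval that includes 0.

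All Cxcl5 UMIs of the fibroblast sets lay in the Ptx3, Igfbp3 and Smoc2 set, with 22 in WT and 323 in mgR, 41.6 and 184 CPM. The rest of the UMIs lay in fibroblasts that both rules left out, since the Fmod, Prg4 and Scx set had 0 in 94 WT and 0 in 310 mgR cells. In mgR, the 12 fibroblasts with 10 or more Cxcl5 UMIs had 11254 CPM of Cxcl1 against 717 in cells without Cxcl5, and 8239.8 against 126 CPM of Ccl2. The strongest Cxcl5 fibroblasts were therefore also high in Cxcl1.

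Cxcr2, the receptor, was carried by the neutrophils. It had 49 UMIs in 15 of 17 WT neutrophils, 1094 (809.5 to 1447) CPM, and 105 in 32 of 38 mgR neutrophils, 1287 (1052 to 1558) CPM. The median neutrophil held 2 UMIs in both libraries and the highest 8 and 7, so the receptor was spread over most cells of its class. Neutrophils were shallow cells, with a median of 2297 and 1773 UMIs. Outside cells that met the neutrophil rule, 2 of 858 WT and 9 of 3392 mgR cells had Cxcr2, with 1 UMI each. In mgR, 8 cells met the neutrophil rule and another, and 6 of them had Cxcr2.

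The ratio of Cxcr2 between libraries was 1.18 (0.830 to 1.69), an interval that includes 1. It turned to 0.785 when cells of more than 1 class were counted in each, and was 2.55 in Y-only cells, on 9 and 28 UMIs. Neutrophils made up 1.94% (1.14 to 3.09) of WT and 1.11% (0.783 to 1.51) of mgR cells, and this difference was not tested. Over all kept cells, Cxcr2 was 11.1 CPM in WT and 4.76 in mgR, a ratio of 0.427 (0.306 to 0.604), the other way from the ratio within neutrophils. Cxcl2 in neutrophils had a ratio of 2.90 (2.23 to 3.82), where 7.05% of 156 genes were 2-fold or more higher in mgR and 3.85% lower, but 3 cells held 50% of its UMIs in each library. Several macrophage transcripts were also higher in mgR neutrophils: C1qa, C1qb and C1qc had 0 UMIs in WT and 135, 98 and 85.8 CPM in mgR, and Pf4 and Ccl2 0 UMIs and 147 and 184 CPM, while Csf1r was 246 and 98 and Cd68 89.3 and 73.5. Their part in the Cxcl2 value was not tested. Neutrophils with 3 or more UMIs of both Cxcl2 and Cxcr2 numbered 2 in WT and 4 in mgR, and Il1b in neutrophils had a ratio of 2.49 (2.06 to 3.03).

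Of the related chemokines and decoy receptors, Pf4, which is not taken here as a CXCR2 ligand, was the one well measured in macrophages. It had 1972 CPM in WT and 2829 in mgR, a ratio of 1.43 (1.38 to 1.49). Ppbp had 2 and 82 macrophage UMIs, under the minimum for a ratio to be counted. Ackr3, a decoy for CXCL12, had 18.4 and 36.1 CPM in fibroblasts, a ratio of 1.97 (1.35 to 2.97). Of the cytokines that induce the ligands, Tnf was highest in macrophages among the 4 classes, at 1952 and 1437 CPM, a ratio of 0.736 (0.707 to 0.766), against 89.3 and 282 CPM in neutrophils. Il1b was highest in neutrophils, at 2948 CPM in WT and 7340.0 in mgR, and macrophages had 2032 and 860.3, a ratio of 0.423 (0.407 to 0.441). In fibroblasts, Il1b had 6 UMIs in WT and 186 in mgR, a ratio of 8.45 (3.81 to 23.3). Macrophage transcripts were also higher in mgR fibroblasts, with C1qb at 7.11 and 24.5 CPM, Csf1r at 2.37 and 6.94 and Tnf at 1.18 and 4.03, and their part in the Il1b value was not tested. In the same class the receptor genes Il1r1 (1.02, 0.873 to 1.19) and Tnfrsf1a (1.06, 0.894 to 1.26) had intervals that include 1.

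Between libraries the pathway lists as a whole moved little in fibroblasts. Of 42 pathway genes, 25 had 100 fibroblast UMIs, 1 of which (Il1b) was 2-fold higher in mgR and 1 (Sele) 2-fold lower, beside 1.54% and 0.710% of all genes, and the median log2 ratio was 0.01 against -0.04 over all genes. Nfkbia (1.12, 1.06 to 1.18), Cebpb (1.15, 1.07 to 1.23) and Nfkb1 (0.809, 0.740 to 0.886) moved less than 2-fold, as did Ccl2 (0.761, 0.702 to 0.825). In macrophages 29 of the 42 genes were measured, 0 were 2-fold higher and 5 lower, namely Il1a (0.370, 0.330 to 0.415), Il1b, Il1rn (0.435, 0.390 to 0.486), Tnfaip3 (0.486, 0.445 to 0.532) and Ptgs2 (0.414, 0.358 to 0.482), beside 1.07% of all genes lower, and the median log2 ratio was -0.25 against 0.11. The 16 digestion genes summed to 9772 and 9974 CPM in fibroblasts, with 9 of them higher in mgR and 7 lower. Hspa1a (0.467, 0.415 to 0.526) and Hspa1b (0.277, 0.232 to 0.330) were 2-fold lower and 0 were 2-fold higher. The part of these genes in the fibroblast ligand ratios was not tested.

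The genes most like each ligand across the cells of its class were found by the smaller of the 2 libraries' Pearson correlations of log(1 + UMIs per 10000), which describes cells of these libraries and carries no test. Cells of a library share its depth and free RNA. For Cxcl1 over 322 WT and 878 mgR fibroblasts these were Tnfaip6 (0.50), Klf4 (0.49), Nfkb1 (0.46), Gadd45b (0.46) and Cxcl2 (0.46). For Cxcl2 over macrophages they were Tnf (0.66), Ccl4 (0.60), Ccl3 (0.57), Nlrp3 (0.50) and Nfkbia (0.49). The sparse Cxcl3 (Il1b, 0.23, then Cxcl2, Mmp12, Bcl2a1b and Flrt3) and Cxcl5 (Adamts1, 0.24, then Serping1, Csf1, C3 and Vegfd) had weak values that are no finding. For Cxcr2 over all kept cells the genes were S100a8 (0.87), S100a9 (0.86), Retnlg (0.79), Mmp9 (0.72) and Slpi (0.69), the first pair being the genes that define the neutrophil class.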

How the data were processed

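Cells of the mitral valve were captured with the 10x Genomics 3′ chemistry, version 3, in 1 library per genotype. The deposited matrices hold counts, UMIs per gene and barcode, which the authors made with Cell Ranger 7.1.0 per the file headers; mm10 comes from the submitters' processing notes. The libraries held 1104 barcodes with 5381844 UMIs (WT) and 3802 with 28215539 (mgR). The genes, lists and class rules were chosen with earlier results of these data known. The pathway lists hold 42 genes: related chemokines with Cxcr1 and decoy receptors, inducing cytokines and their receptors, NF-kB and mRNA decay regulators, co-induced products, and neutrophil adhesion and mobilisation genes. Not every chemokine of the first list, Pf4 among them, is taken here as a CXCR2 ligand. Text names the 5 genes, list genes and the 5 genes most like each. UMIs were summed per class and library and divided by class totals (CPM); 3′ UMIs count molecules and were not scaled by length. Exact Poisson (levels), Clopper-Pearson (shares) and conditional binomial (ratios) intervals at 95% cover counting error only, and 0 counts allow 3. Cells are not replicates, so no P value is given. A gene needed 100 UMIs in a class to enter counts of 2-fold ratios. Cells meeting more than 1 rule (33 WT, 354 mgR) were left out of the classes; Scrublet marked 7 WT and 51 mgR cells (0.800% and 1.48%), which stayed in. Thinning to 2000 UMIs left out 116 and 158 cells. Python 3.11.15, scipy 1.17.1 and scanpy 1.11.5 were used, and the ratio intervals were tested on simulated data.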

Additional observations from a re-analysis of the deposited data

Results flagged for a closer look

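Cxcl1 had a mgR to WT CPM ratio of 2.65 (2.46 to 2.85) in fibroblasts and 0.721 (0.688 to 0.755) in macrophages, and Cxcl2 2.37 (2.10 to 2.67) and 0.606 (0.599 to 0.613). Both were picked out because the library difference went up in one class and down in the other. With 1 library per genotype that difference between classes was not tested. The direction in each class was the same in Xist-only and Y-only cells alike.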

How the results depend on the processing

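Values are log2 ratios of mgR to WT in the class with the highest level, and a value is named when it left the counting interval of the reported one. Of 54 such ratios under 11 settings, 38 stayed within that interval. Cxcl1 in fibroblasts was 1.40 and became 1.12 with cells of more than 1 class counted in each, 0.84 in Xist-only cells and 2.41 in Y-only cells. Cxcl2 in macrophages was -0.72 and became -0.74 at a mitochondrial limit of 5%, -0.63 after thinning to 2000 UMIs, -0.61 as a mean over cells, -0.85 with median-ratio scaling, and -0.70 and -0.91 in Xist-only and Y-only cells. Cxcl3 in macrophages was -0.59 and became -0.90 after thinning, -0.96 without the 1% highest cells and -1.65 in Y-only cells. Cxcl5 in fibroblasts was 0.90 and became 2.0 without the 1% highest cells and 1.68 in Xist-only cells. Cxcr2 in neutrophils was 0.23 and became -0.35 with inclusive classes, a change of sign, and 1.35 in Y-only cells. Neutrophils were 0% of WT and 0.287% of mgR Xist-only cells, so Cxcr2 had no ratio there. The share of a gene's class UMIs in its 10 highest cells, after thinning, was 24.5% for Cxcl1 in mgR fibroblasts (24.3% with inclusive classes), 14.3% for Cxcl2 in WT macrophages, 36.5% for Cxcl3 in mgR macrophages, 100% for Cxcl5 in WT fibroblasts, and 100% and 95% for Cxcr2 in WT and mgR neutrophils. Thinning left Cxcl5 in 9 WT fibroblasts, and Cxcr2 in 9 WT and 12 mgR neutrophils. In these 10 cells hold all or nearly all UMIs whatever the spread. The share of mgR cells with a UMI, after thinning, was 27.2% for Cxcl1 and 5.21% for Cxcl5 in fibroblasts (28.9% and 6.20% with inclusive classes), and 87.8% for Cxcl2 and 6.15% for Cxcl3 in macrophages. The other 43 and 54 such shares stayed within their intervals. The cause was not tested. No paired analysis was possible because each genotype has 1 library, and no library could be left out.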
